A study of Mus musculus with 12 samples.

Results

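The 10 transcripts described here are the mitochondrially encoded messenger RNAs ND1, ND2, ND4, ND5, ND6, CYTB, COX1, COX2, COX3 and ATP6. They were chosen by name, as the rows of the deposited gene table that carry these symbols, and are 10 of 45777 rows in all and 10 of the 37 genes of the mitochondrial chromosome that the table holds. Total liver RNA from 12 C57BL/6 mice aged 10 to 12 weeks was sequenced after poly-A selection, with 3 livers in each of 4 groups. WT mice received vehicle or an overdose of acetaminophen (APAP; 300 mg/kg by intraperitoneal injection, liver taken 6 h later after an overnight fast), and mice labelled Gα12KO, with the labelled genotype Gα12-/- (no Gna12, the gene of a G protein alpha subunit), received the same treatments. Each transcript was followed across the groups as its share of gene-assigned reads in each liver.

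Mammalian mitochondrial DNA encodes subunits of respiratory complexes I, III and IV and of ATP synthase, while the remaining subunits come from nuclear genes. Both strands are transcribed into long precursor RNAs, from which the tRNAs that lie between the messenger and ribosomal RNAs are cut out. Most of the messenger RNAs then receive a short poly-A tail. The reactive metabolite of APAP binds mitochondrial proteins in hepatocytes, and loss of mitochondrial respiration is a known early event in APAP liver injury.

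The libraries held between 49737950 and 69566079 gene-assigned counts each. Gna12 was at 17.8 to 68.3 CPM (here counts scaled by library totals alone) in the 6 livers labelled WT. It was at 49.4 to 75.2 CPM in the 6 labelled KO, so the table did not show the labelled loss of the gene. The paper assayed its knockout mice by PCR of tail DNA, qRT-PCR of liver and immunoblots of Gα12. Gene totals do not test those assays. The second genotype is called the KO label throughout. All other CPM values are counts scaled for library size with TMM factors. The 6 hepatocyte marker genes summed to 134039 CPM in WT APAP replicate 1 and to 71386 to 97884 CPM in the other 11 livers. Libraries WT APAP replicate 1 and KO label vehicle replicate 3 stood apart in the make-up of the mitochondrial transcripts, and the former also held 17080 CPM of 5 erythroid markers against 252 to 749 in the other 11 and 119 CPM of 6 neutrophil markers against 0.169 to 18.0. Where stated, results that rest on either library are given with and without it. The shared signs of the nuclear complex I genes are given with all livers only. P-values measure the spread between the samples as labelled, 3 to a group.

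All 10 transcripts lie on chromosome MT (GRCm38, RefSeq coordinates), and only ND6 lies on the minus strand, where it is read in the opposite direction to the other 9. Their last 15 annotated bases are shown because the annotated ends differ. Whether the captured RNAs end at these bases was not tested. The stop codon, or the part of it that is encoded, is in capitals.
ND1: ccaccatacataTAG
ND2: caactaattaccTAG
ND4: caggcctgacaataT
ND5: attaatctcgagTAA
ND6: attactcgagatTAA
CYTB: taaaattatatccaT
COX1: gtaaaagtaaaaTAA
COX2: gcttcaataattTAA
COX3: attgatgaggatctT
ATP6: catgataatacaTAA
In ND4 (1378 bases), CYTB (1144 bases) and COX3 (784 bases) the annotated transcript ends in the first base of a stop codon, a T, and its length leaves a remainder of 1 when divided by 3. In such transcripts the poly-A tail supplies the rest of the stop codon. The other 7 carry a whole TAA or TAG.

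Neighbouring genes overlap, which sets a limit on how reads can be assigned. The first 60 bases of ATP6 (positions 7927 to 7986, plus strand) are shown with the 43 bases that are also the end of ATP8 in capitals, and the last 40 bases of ND5 (13526 to 13565, plus strand) and of ND6 (13552 to 13591, minus strand) with the 14 bases they share on opposite strands in capitals.
ATP6 start: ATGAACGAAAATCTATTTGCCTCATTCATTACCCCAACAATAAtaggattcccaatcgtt
ND5 end: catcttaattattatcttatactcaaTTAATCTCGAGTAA
ND6 end: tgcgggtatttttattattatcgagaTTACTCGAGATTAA
ATP6 and COX3 share 1 base. The kit marks strand, but the sources used here do not state whether strand was used in counting. Reads over the ND5 and ND6 overlap therefore cannot be assigned with certainty. The same holds for any reads from the opposite strand along the rest of ND6.

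Near-identical nuclear copies set a second limit. Every stretch of 50 bases of each transcript was looked up, on both strands, in all non-mitochondrial transcripts of the GENCODE M21 annotation. COX2, COX3 and ATP6 had 100%, 99.86% and 99.53% of their stretches in annotated pseudogenes, nearly all of them in a run of pseudogenes on chromosome 1 (Gm28661 at 24614885 to 24615565 for COX2, Gm28437 at 24613189 to 24613971 for COX3 and Gm10925 at 24613974 to 24614651 for ATP6). For ND4 the share was 62.23% and for COX1 51.14%. ND2 and ND5 had 8.19% and 7.606%, and ND1, ND6 and CYTB had 0%. None of these pseudogenes is a row of the table, so reads cannot be told apart between the mitochondrial gene and its copy here.

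The 10 transcripts together took between 5.47% and 9.19% of gene-assigned reads. With vehicle, the WT livers were at 7.24%, 8.75% and 7.38% and the KO label livers at 6.83%, 6.76% and 9.05%. After APAP, the WT livers were at 9.19%, 5.47% and 6.84% and the KO label livers at 6.76%, 7.81% and 6.93%. The groups overlapped in every comparison: the mean was 7.79% ± 0.835 (SD, n = 3) in WT vehicle, 7.17% ± 1.88 in WT APAP, 7.54% ± 1.30 in KO label vehicle and 7.17% ± 0.564 in KO label APAP. The highest and the lowest of the 12 shares were both in the WT APAP group. In bulk liver, fewer cells of a type and less RNA per cell cannot be told apart.

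**Figure D1:**
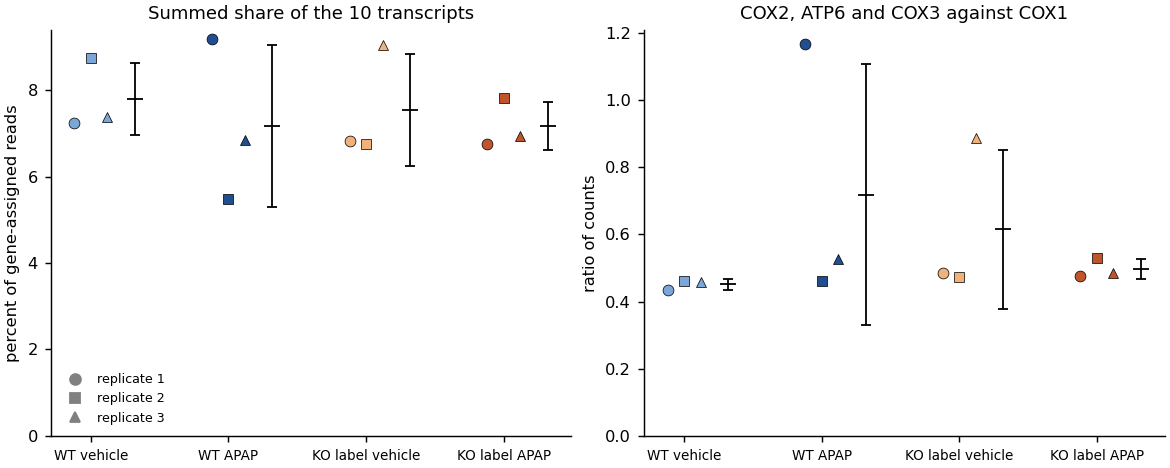
Left, the summed share of the 10 transcripts in percent of gene-assigned reads for each liver; right, the counts of COX2, ATP6 and COX3 divided by those of COX1. Symbols are livers by replicate number, and the bar beside each group is the mean ± SD (n = 3). The shares overlap between all groups, and on the right WT APAP replicate 1 (1.17) and KO label vehicle replicate 3 (0.887) stand above the other 10 livers (0.434 to 0.530).

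On the scale per length (TPM, abundance scaled for length and depth), the 10 spanned from 27420 ± 3937 for COX1 to 493 ± 105 for ND6 (SD, n = 12 livers over all groups). COX1, the catalytic core of complex IV, was the highest in all 12 livers and made up 35.3% ± 4.34 of the counts of the 10. CYTB, the core of complex III, followed at 14770 ± 1862 TPM, and ATP6, part of the proton channel of ATP synthase, at 14041 ± 3223. CYTB was above ATP6 in 10 of 12 livers, so the order of this pair is not the same in every liver.

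The complex I subunits ND2 (10589 ± 1730 TPM) and ND1 (9112 ± 1576) enclosed COX3 (9731 ± 2629), and COX2, which takes up electrons from cytochrome c in complex IV, was at 8929 ± 2204. COX3 was above ND1 in 5 of 12 livers and ND1 above COX2 in 9 of 12, so these 3 do not differ beyond their spread. Below them came the complex I subunits ND4 (7586 ± 787) and ND5 (3980 ± 676), each above the next transcript in all 12 livers. ND6, also of complex I and the sole messenger RNA of its strand, was listed at 344 to 719 TPM. The counts of ND6 stood at 32.2 to 40.5 per 1000 counts of ND5, the transcript it overlaps, and over the 12 livers the log2 shares of the 2 had a Pearson r of 0.95. The nuclear copies may raise or lower the listed levels of COX2, COX3 and ATP6, since the treatment of reads that fit several places is not given.

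**Figure D2:**
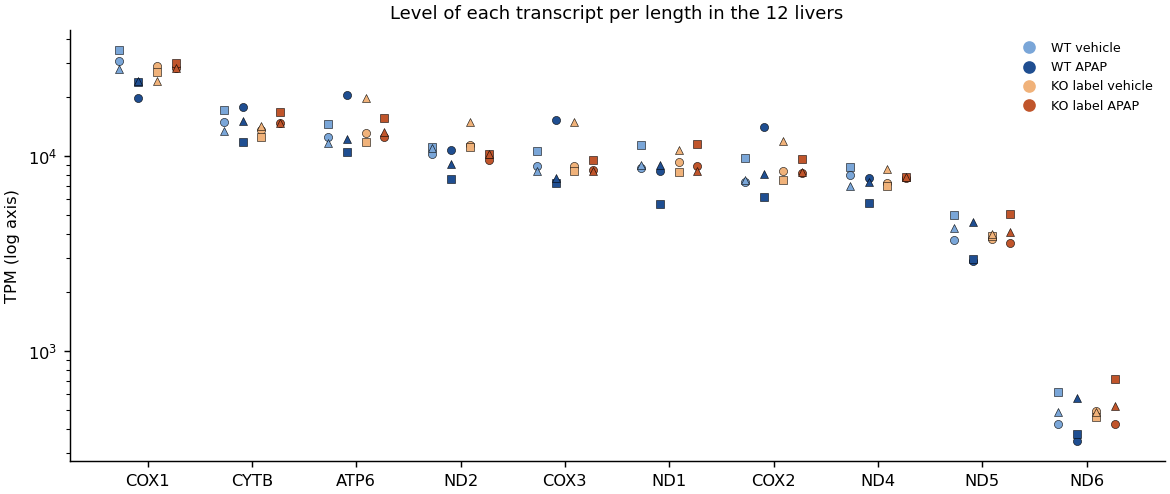
TPM (log axis) of each transcript in each of the 12 livers, ordered by mean level; colours are groups and symbols replicate numbers. COX1 is highest throughout (19797 to 35086 TPM), ND6 lowest (344 to 719), and the groups lie over each other for most transcripts.

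The make-up of the 10 was similar in most livers and departed in a pair of them. The counts of COX2, ATP6 and COX3 added up to 1.17 times those of COX1 in WT APAP replicate 1 and 0.887 times in KO label vehicle replicate 3, against 0.434 to 0.530 in the other 10. Relative to the median liver, and as log2 of the share of the 10, COX3 was higher by 0.76 and 0.61 in those 2 livers, COX2 by 0.73 and 0.38 and ATP6 by 0.63 and 0.46. COX1 was at -0.57 and -0.39 in the same livers. ND4 was at 0.01 and 0.04, and its share of the 10 varied least for its size, from 8.15% to 9.13%.

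Across the 12 livers the log2 shares of COX2 and ATP6 had a Pearson r of 0.99, those of COX3 and ATP6 0.98 and those of COX2 and COX3 0.96, while COX1 had 0.07, 0.05 and 0.08 with COX2, ATP6 and COX3. Over the 10 livers without the 2 that stood apart, the first 3 values were 0.95, 0.85 and 0.84, and those of COX1 became 0.75, 0.78 and 0.97, so the low values for COX1 rest on those 2 livers. These are descriptions over livers that share a library for each pair of values. Several measures moved with the departure. The 3 transcripts are those with near-complete nuclear copies, and ND3, a complex I subunit outside the 10 with 97.99% of its stretches in such a copy, was at 0.75 and 1.03 in the same livers, but ND4L, with 98.79%, was at -0.17 and 0.01, and ATP8, with 0% and a length of 204 bases, was at 0.33 and 0.58. The 3 are also shorter, at 681 to 784 bases, than the other members except ND6 (519 bases), and ND6 was at -0.54 and -0.17. The mean transcript length implied by the table, the harmonic mean weighted by reads, was 1516 bases in WT APAP replicate 1 and 1635 in KO label vehicle replicate 3, below the 1744 to 1975 of the other livers. The part of the copies, of transcript length or of the erythroid RNA in the result was not tested.

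**Figure D3:**
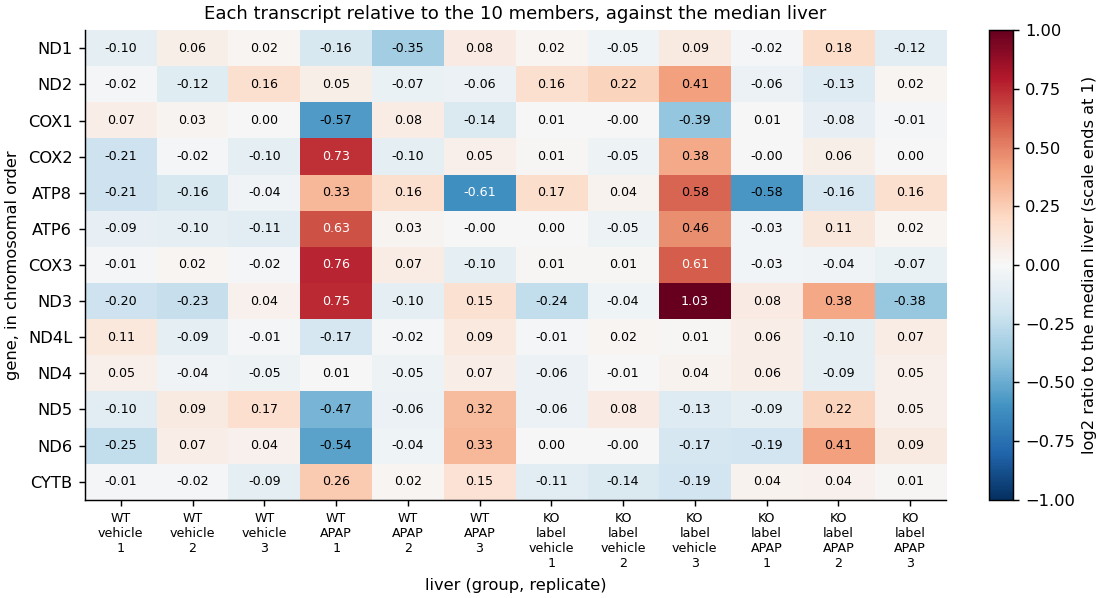
Log2 ratio of each transcript's counts per count of the 10 members to the median of the 12 livers, for the 13 protein-coding genes in chromosomal order; colours end at 1 in each direction. COX2, ATP6, COX3 and ND3 are high and COX1 low in WT APAP replicate 1 and KO label vehicle replicate 3.

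The first comparison asked what APAP did to these transcripts in WT livers. With edgeR's quasi-likelihood test on the counts, 0 of 10 passed an adjusted p of 0.05, where 2.05% of all 15693 genes tested did. None passed an unadjusted p of 0.05 either, and DESeq2's Wald test also called 0. On the CPM scale no member had separate groups, 0 of 10 against 24.8% of all genes. The median log2 fold change of the 10 was 0.00, beside 0.03 for all genes, with 5 above and 5 below 0.

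COX1 was the lowest of the 10 in this comparison. It took 2.82%, 3.32% and 2.74% of reads with vehicle and 2.30%, 2.14% and 2.30% after APAP. As a share of reads the groups did not overlap, but how many of all genes were separate on that scale was not determined. On the CPM scale the COX1 groups overlapped, since WT APAP replicate 1 was at 30226 CPM beside 27528, 37244 and 28274 with vehicle. The log2 fold change was -0.33 (SE 0.29), with an adjusted p of 0.60 in edgeR.

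COX2 was the highest. Its CPM was 2921, 4621 and 3390 with vehicle and 9529, 2275 and 3362 after APAP. The value of 9529 is that of replicate 1, and the other 2 APAP livers lay within or below the vehicle range. The log2 fold change was 0.50 (SE 0.53, edgeR adjusted p 0.66), and without WT APAP replicate 1 it was -0.37. Without that liver the median of the 10 was -0.40 and all 10 were below 0, still with 0 called.

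Under the KO label, 0 of 10 passed, where 22.6% of 15665 genes tested did, and 0 passed an unadjusted p of 0.05 in edgeR, with 1 in DESeq2. Treated and untreated livers were separate for 1 of the 10, against 42.9% of all genes. All 10 log2 fold changes were below 0, with a median of -0.22 beside -0.02 for all genes. That common sign rested on the scaling and on a single liver: with quantile-normalised log2 TPM 9 of 10 were above 0 (median 0.19), and without KO label vehicle replicate 3 the median was 0.07 with 7 above 0.

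The transcript whose groups did not overlap was ND2, a subunit of the membrane arm of complex I. It was at 6000, 6902 and 11634 CPM with vehicle and at 4995, 5762 and 5667 after APAP. Every APAP liver was thus below every vehicle liver, with vehicle replicate 3 far above the rest. The log2 fold change was -0.57 (SE 0.27), and the adjusted p was 0.16 in edgeR. Leaving out each liver in turn gave -0.73 to -0.23. The smallest change under the KO label was that of ND6, with a log2 fold change of -0.00 (SE 0.24, edgeR adjusted p 0.99).

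Over both labels together, with the genotype label as a term, 0 of 10 passed, against 25.7% of 16112 genes, and 0 passed an unadjusted p of 0.05 in edgeR and in DESeq2. The log2 fold changes ran from -0.30 (SE 0.25) for ND2 to 0.08 (SE 0.23) for CYTB, and that of COX1 was -0.22 (SE 0.15), with adjusted p of 0.41, 0.83 and 0.32 in edgeR. The median was -0.09, beside 0.01 for all genes. Without WT APAP replicate 1, ND2 passed, at -0.54 with an edgeR adjusted p of 0.035. Without both livers that stood apart, a choice made after the data were seen, 0 of 10 passed and all 10 were below 0 (median -0.17).

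Whether APAP acted differently by label was tested with the interaction term over 12 livers. It passed for 0 of 10 and for 0% of 16509 genes, while 848 of all genes and 0 of the 10 had an unadjusted p under 0.05, and DESeq2 called 9 genes and 0 of the 10. Estimates ran from -0.24 (SE 0.30) for COX1 to 0.98 (SE 0.68) for COX3, with edgeR adjusted p of 0.91 and 0.88. Their median of 0.24 became -0.45, with all 10 below 0, without the 2 livers that stood apart.

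**Figure D4:**
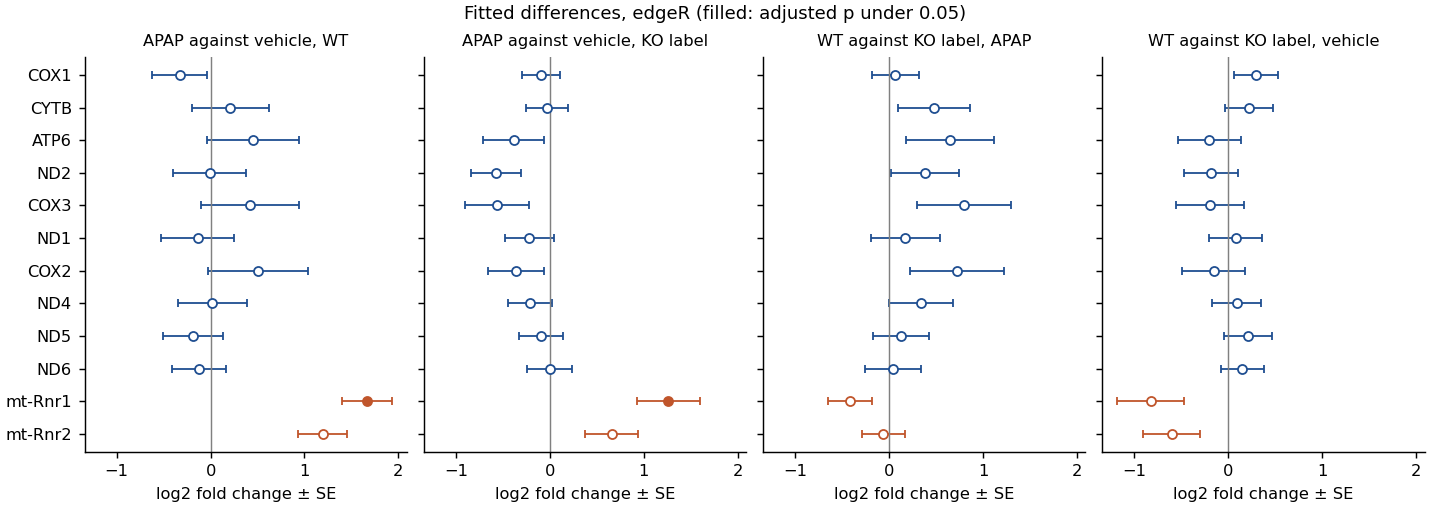
Log2 fold change ± SE from edgeR for the 10 transcripts (blue, ordered by TPM) and the 2 mitochondrial rRNAs (orange) in each comparison of 3 livers with 3; filled points passed an adjusted p of 0.05. All blue points are open, and mt-Rnr1 is filled in both APAP comparisons (1.67 and 1.26).

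The genotype labels were compared within each treatment. After APAP 0 of 10 passed, where 0.0309% of 16174 genes did, and on the CPM scale 0 of the 10 had separate groups against 8.53% of all genes. All 10 log2 fold changes of WT over KO label were above 0, from 0.04 (SE 0.30) for ND6 to 0.80 (SE 0.50) for COX3, with edgeR adjusted p of 0.99 and 0.96. COX3 was at 11803, 3102 and 3672 CPM in WT and 3359, 4046 and 3508 under the KO label, so that the difference lay in WT APAP replicate 1. Without that liver all 10 were below 0, with a median of -0.12 in place of 0.36, and with quantile-normalised log2 TPM all 10 were also below 0 (median -0.34). With library totals 6 were above and 4 below 0 (median 0.027). As a share of reads COX1 was lower in WT without overlap, at 2.30%, 2.14% and 2.30% against 2.52%, 2.75% and 2.56% under the KO label. How many of all genes were separate as shares of reads was not determined.

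With vehicle 0 of 10 passed, where 0.0262% of 15262 genes did, and 0 of the 10 had separate groups against 14% of all genes. None had an unadjusted p under 0.05 in either comparison of labels. The estimates ran from -0.20 (SE 0.34) for ATP6 to 0.29 (SE 0.24) for COX1, with edgeR adjusted p of 0.91 and 0.80. COX1 took 2.82%, 3.32% and 2.74% of reads in WT and 2.55%, 2.51% and 2.57% under the KO label, which do not overlap as shares but do as CPM. Here too the number of all genes separate as shares was not determined. The median of the 10 was 0.08, and without KO label vehicle replicate 3 it was 0.35 with all 10 above 0.

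The ribosomal RNAs of the same chromosome both rose after APAP over both labels, while 0 of the 10 messenger RNAs passed. mt-Rnr1 (positions 70 to 1024) and mt-Rnr2 (1094 to 2675), the small and large subunit rRNAs of the mitochondrial ribosome, are read from the same strand as 9 of the 10 and lie ahead of ND1. mt-Rnr1 was at 322, 296 and 191 CPM in WT vehicle and at 728, 808 and 1011 in WT APAP. Under the KO label it was at 314, 365 and 759 with vehicle and at 893, 1383 and 1152 after APAP. Neither pair of groups overlapped, where 24.8% of all genes in WT and 42.9% under the KO label had separate groups.

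mt-Rnr1 rose by a log2 fold change of 1.67 (SE 0.27, edgeR adjusted p 0.027) in WT, 1.26 (SE 0.34, adjusted p 0.031) under the KO label and 1.46 (SE 0.23, adjusted p 0.00074) over both. Leaving out each liver in turn gave 1.45 to 1.81 in WT and 1.06 to 1.76 under the KO label, and the call was lost without WT vehicle replicate 1, 2 or 3 or WT APAP replicate 3 (adjusted p 0.058 to 0.12) and without KO label vehicle replicate 1 or 2 or KO label APAP replicate 2 or 3 (0.066 to 0.11). In WT it was also lost with library totals (0.056), with the replicate block (0.14) and with limma on log2 TPM with either pseudocount (0.066 and 0.054). Over both labels it held in all 23 alternatives, at 1.35 to 1.70 on leaving out single livers.

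mt-Rnr2 was at 493, 426 and 320 CPM in WT vehicle, 716, 1165 and 930 in WT APAP, 407, 562 and 917 in KO label vehicle and 1138, 867 and 949 in KO label APAP. The WT groups of mt-Rnr2 did not overlap, as for 24.8% of all genes, and the KO label groups did, through vehicle replicate 3. It rose over both labels, by 0.92 (SE 0.21, edgeR adjusted p 0.0070), and did not pass in WT alone (1.19, SE 0.26, adjusted p 0.068) or under the KO label alone (0.66, SE 0.28, adjusted p 0.13). In WT it passed with DESeq2 (adjusted p 0.00050) and in a fit of all 12 livers (0.028). In KO label livers it passed without vehicle replicate 3, at 1.04 with an adjusted p of 0.024, and with library totals (0.038).

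Set against the 10 messenger RNAs in the same liver, the 2 rRNAs held 6.73 to 16.9 counts per 1000 member counts in the 6 vehicle livers. In 5 of the 6 APAP livers they held 28.5 to 38.6, and in WT APAP replicate 1 they held 12.0, within the vehicle range. The 3 protein genes outside the 10 (ND3, ND4L and ATP8) did not pass in any of the 6 comparisons, with edgeR adjusted p of 0.17 or more. The interaction did not pass for either rRNA (mt-Rnr1 0.40, SE 0.46, adjusted p 0.90; mt-Rnr2 0.53, SE 0.41, adjusted p 0.88).

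**Figure D5:**
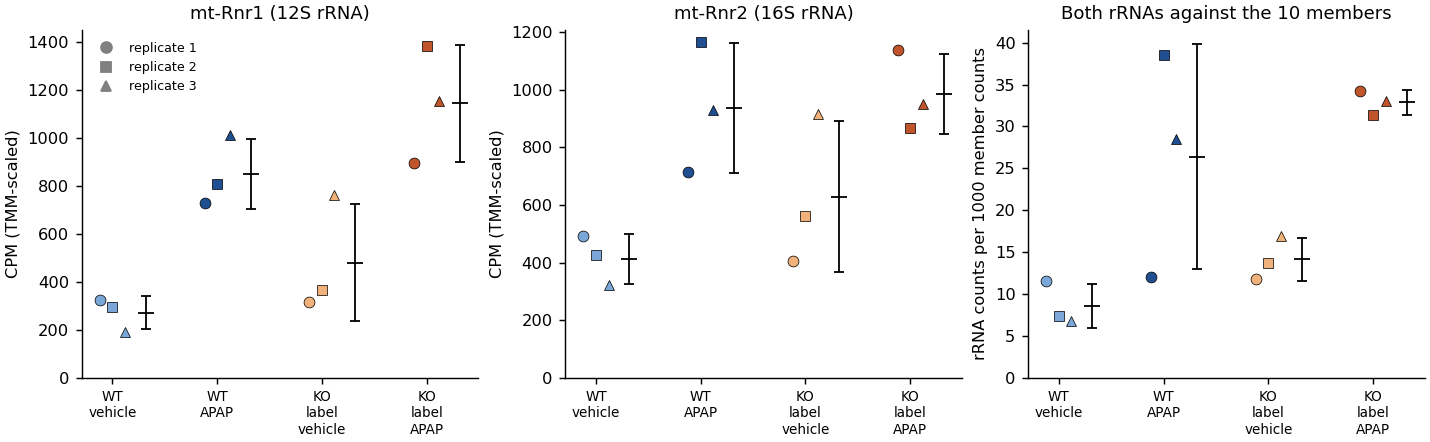
CPM of mt-Rnr1 and mt-Rnr2 and the counts of both per 1000 counts of the 10 messenger RNAs, by liver; symbols are replicate numbers and bars mean ± SD (n = 3). In the right panel 5 APAP livers lie at 28.5 to 38.6 and WT APAP replicate 1 lies at 12.0, among the vehicle livers.

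These libraries were selected for poly-A, and RNAs known to lack a long tail moved the same way. Of 15 such RNAs listed, 5 were tested, and all 5 rose in WT, under the KO label and over both labels. Of all genes, 2.05%, 22.6% and 25.7% passed in these comparisons. Rn7sk, a nuclear regulator of transcription elongation, was at 0.273 to 0.622 CPM in the vehicle livers and 16.5 to 29.5 after APAP, a log2 fold change of 5.66 (SE 0.23, edgeR adjusted p 2.8e-08) over both labels. Rpph1, the RNA of nuclear RNase P, rose by 4.63 (SE 0.41, adjusted p 1.1e-05), and Rn7s1, a signal recognition particle RNA, by 1.72 (SE 0.26, adjusted p 0.00049). The 5 summed to 27.9 to 49.6 CPM in the APAP livers and 2.41 to 6.05 in the vehicle livers. Their fold changes thus rest on low vehicle values. In bulk liver a change in how much of an RNA there is and in how much of it was captured cannot be told apart. Markers of other cells moved with APAP as well. The 4 cholangiocyte markers summed to 2.54 to 7.73 CPM with vehicle and 17.9 to 39.6 after APAP. Sox9 made up most of the sum after APAP. Over both labels 2 of 4 were higher, where 25.7% of all genes passed. Of 5 stellate cell markers 3 fell under the KO label, where 22.6% of all genes passed. The 5 markers summed there to 190 to 261 CPM with vehicle and 157 to 160 after APAP. In WT, where 2.05% of all genes passed, 0 of the 5 markers did, and they summed to 131 to 154 and 158 to 313. The part of capture or of these cells in the rRNA result was not tested.

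Of the 22 tRNAs in the table, which are cut from between these transcripts, 15 were tested in WT and 1 fell, where 2.05% of all genes passed. Of 16 tested, 5 fell under the KO label and 5 over both labels, where 22.6% and 25.7% of all genes passed, which is near the share of the tRNAs, so neither count is a result about the tRNAs as a group. TrnE, which lies next to ND6 on the minus strand, was at 44.9, 55.9 and 54.9 CPM in WT vehicle and 26.1, 26.8 and 27.1 in WT APAP. Under the KO label it was at 43.7, 55.6 and 79.0 with vehicle and 29.2, 26.5 and 36.3 after APAP. The groups did not overlap under either label, as for 24.8% of all genes in WT and 42.9% under the KO label.

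TrnE fell by a log2 fold change of -0.95 in WT (SE 0.16, edgeR adjusted p 0.030), -0.94 under the KO label (SE 0.22, adjusted p 0.020) and -0.95 over both (SE 0.14, adjusted p 0.00037). TrnI and TrnQ, which lie between ND1 and ND2, fell over both labels by -1.24 (SE 0.31, adjusted p 0.011) and -1.005 (SE 0.20, adjusted p 0.0033). TrnM, next to ND2, and TrnY, next to COX1, fell by -0.78 (SE 0.22, adjusted p 0.022) and -0.72 (SE 0.20, adjusted p 0.021), and both missed the threshold without the 2 livers that stood apart (adjusted p 0.087 and 0.073). TrnM also missed it without KO label vehicle replicate 3 or KO label APAP replicate 3 (0.057 and 0.052), and TrnY without KO label vehicle replicate 3 (0.0503). Library totals ended both calls too (0.062 and 0.085). The call of TrnE was lost in WT without any of the 3 vehicle livers or APAP replicate 2 or 3 (0.051 to 0.14), with library totals (0.086), with the replicate block (0.15) and with limma on log2 TPM (0.075 and 0.068), and under the KO label without vehicle replicate 2 or APAP replicate 1 or 2 (0.053 to 0.061), while over both labels it held without each liver. Under the KO label TrnM and TrnY each lost the call in 5 of 6 such fits, TrnQ in 1 and TrnI in 0. Mature tRNAs are too short to be kept well by such libraries and several overlap a neighbour by a few bases, so their counts, 111 to 3575 per liver for the 5 named, cannot be told apart from uncut precursors or neighbouring transcripts.

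Complex I, III and IV and ATP synthase also hold nuclear subunits. In WT after APAP, where 2.05% of all genes passed, 0 of 37 nuclear complex I, 0 of 9 complex III, 0 of 12 complex IV and 0 of 15 ATP synthase genes passed. Under the KO label, where 22.6% of all genes passed, 1 of these passed, the ATP synthase inhibitor Atpif1, which fell by -0.64 (SE 0.18, edgeR adjusted p 0.038), a call lost on leaving out 5 of the 6 livers one at a time (adjusted p up to 0.11). Signs were shared there as among the 10: 37 of 37 complex I genes were below 0 (median -0.25). After APAP 37 of 37 were above 0 in WT over KO label (median 0.48). These signs are given with all livers only. The complex I genes summed to 3746 CPM in WT APAP replicate 1 and to 1895 and 2201 in replicates 2 and 3. In the KO label livers they summed to 1788 to 2116 CPM after APAP. With vehicle they summed to 1951, 2276 and 2806 there, the last in replicate 3. The nuclear complex IV genes summed to 3538 CPM in WT APAP replicate 1 and 2375 in KO label vehicle replicate 3, against 1280 to 1901 in the other livers, so the same 2 livers stood apart.

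Over both labels, where 25.7% of all genes passed, 1 complex I gene did. It was Ndufs1, an iron-sulfur subunit of the electron entry arm, at -0.26 (SE 0.09, edgeR adjusted p 0.047). Complex II, which has no mitochondrially encoded subunit, had 3 of 4 genes lower: Sdha fell by -0.31 (SE 0.09, adjusted p 0.029), Sdhc by -0.32 (SE 0.10, adjusted p 0.036) and Sdhb by -0.38 (SE 0.13, adjusted p 0.047). Sdha, the flavoprotein that oxidises succinate, was at 367 to 405 CPM in WT vehicle and 289 to 347 in WT APAP. Under the KO label it was at 379 to 408 with vehicle and 279 to 320 after APAP, with no overlap under either label. Of all genes, 24.8% in WT and 42.9% under the KO label had separate groups. These 4 calls lie near the threshold: leaving out 1 of the 12 livers took it away in 7 of 12 fits for Sdha, 10 for Sdhc, 10 for Sdhb and 11 for Ndufs1, with log2 fold changes that stayed below 0 and adjusted p of up to 0.13.

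Genes that transcribe or keep mitochondrial DNA changed in both directions over both labels, with 1 of 17 higher and 6 lower, where 25.7% of all genes passed. Polg2, the accessory subunit of the mitochondrial DNA polymerase, rose by 1.12 (SE 0.19, edgeR adjusted p 0.0010), and Tfb1m, which methylates the small subunit rRNA, fell by -0.68 (SE 0.15, adjusted p 0.0053). Endog, a mitochondrial nuclease, fell by -0.42 (SE 0.10, adjusted p 0.0094) and Mterf1a, a termination factor bound beyond the rRNA genes, by -0.77 (SE 0.20, adjusted p 0.014). With library totals in place of TMM both calls were lost (adjusted p 0.071 and 0.053). Among genes that process mitochondrial RNA, 3 of 21 rose and 3 fell. Neither this count nor that of the 17 is read as a result about its list. Elac2, which cuts the 3′ ends of the tRNAs, rose by 0.41 (SE 0.11, adjusted p 0.013, but 0.052 with library totals), and Trmt10c, a subunit of the enzyme that cuts their 5′ ends, by 0.41 (SE 0.11, adjusted p 0.017). Hsd17b10, another subunit of the latter, fell by -0.83 (SE 0.14, adjusted p 0.00091), from 139 to 237 CPM in the vehicle livers to 81.2 to 119 in the APAP livers.

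Over both labels 25.7% of all genes passed, and the counts below are not read as results about the lists as groups. Of 8 regulators of mitochondrial biogenesis 3 rose. Among them were Pprc1, a coactivator, by 1.05 (SE 0.26, edgeR adjusted p 0.011) and Nrf1, a transcription factor of respiratory genes, by 0.60 (SE 0.11, adjusted p 0.0019). Among 13 mitochondrial chaperones and proteases 3 rose and 1 fell. The partner chaperonins Hspe1 and Hspd1 rose by 1.12 (SE 0.18, adjusted p 0.00078) and 0.95 (SE 0.21, adjusted p 0.0058), and Hspe1 was at 66.4 to 127 CPM with vehicle and 132 to 234 after APAP. Of 13 genes of mitophagy and mitochondrial shape 1 rose and 3 fell, with the fusion proteins Mfn2 at -0.63 (SE 0.13, adjusted p 0.0043) and Opa1 at -0.35 (SE 0.08, adjusted p 0.0077), both lost with library totals (0.062 and 0.17).

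The nuclear genes whose CPM followed the summed CPM of the 10 most closely over the 12 livers, among 5625 genes with a mean log2 CPM of at least 4, were Atp5pb and Atp5c1, which are ATP synthase subunits, Cyb5a, a cytochrome b5, Psenen and BC031181, each with a Pearson r of 0.97. Among those with the lowest r were Pkd1, Pkp4, Dgkz and Dock5, all near -0.92. Among the 10 themselves r with the sum was 0.99 for ND4 and 0.75 for ND6, the ends of the range. The sum was highest in WT APAP replicate 1 and in KO label vehicle replicate 3, at 120575 and 99472 CPM against 51144 to 98270 elsewhere, and without these 2 livers r was 0.92 to 0.94 for the first 5 genes and -0.91 to -0.82 for the last 4. These values describe the libraries, in which depth and scaling are shared.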

How the data were processed

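The authors deposited 1 gene table with a count, an FPKM and a TPM value per liver, made on mm10 (GRCm38) with RefSeq gene IDs; per the labels, Trimmomatic 0.38, HISAT2 2.1.0, Bowtie2 2.3.4.1 and StringTie 2.1.3b were used, with no roles given, on libraries from a stranded poly-A kit. Use of strand in counting and the treatment of reads that fit several places are not given in the sources used here. The deposited counts were raw and whole, the deposited TPM and FPKM values were scaled by the authors for length and depth, and FPKM served only for the mean transcript length. Totals of 49737950 to 69566079 counts per liver make counting error small beside the spread between livers.

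The members and gene lists were chosen with earlier results of these data known. Groups came from the sample titles. Counts were fitted over all genes with edgeR 4.0.16 (R 4.3.3; quasi-likelihood test, TMM scaling, filterByExpr) and p-values adjusted over all genes tested by Benjamini-Hochberg, threshold 0.05. The SE is the log2 fold change divided by the square root of F. Comparisons of 2 groups used their 6 livers, and the interaction and the fit over both labels used 12. CPM values are TMM-scaled, except those of Gna12, which are scaled by library totals alone. Alternatives were DESeq2 1.42.0, other scalings and filters, limma 3.58.1 on quantile-normalised log2(TPM + 1) and log2(TPM + 0.1), the replicate number as a block, and leaving out each liver. Named were all members, the other mitochondrial genes, at most 4 genes per list by smallest p, and the 5 genes with the highest and 5 with the lowest correlation with the members' sum, of which 1 is not reported here. The functions were tested on simulated data. Sequences are GENCODE M21 transcripts.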

Additional observations from a re-analysis of the deposited data

How the results depend on the processing

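None of the 10 transcripts passed in any of the 6 comparisons under any alternative, except ND2 over both labels without WT APAP replicate 1, where the number that passed was 1 in place of 0. Directions were less steady, and the cause was not tested. With limma on quantile-normalised log2(TPM + 1) or log2(TPM + 0.1), the members' median was 0.19 with either pseudocount under the KO label, -0.34 for WT over KO label after APAP and -0.38 for the interaction, with ND6 at 0.020 under the KO label and at -0.24 for WT over KO label after APAP, and COX3 at -0.25 there and at -0.13 in the interaction. With library totals ND6 was at 0.13 under the KO label and -0.23 for WT over KO label after APAP. Library totals moved the median of all genes in the latter comparison to -0.22. Without the 2 livers that stood apart, an alternative chosen after seeing the data, the interaction was -0.45 for the median, -0.45 for COX3 and -0.015 for mt-Rnr1, and CYTB over both labels was -0.077.

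Leaving out each liver in turn gave medians of -0.34 to 0.069 under the KO label, -0.12 to 0.62 for WT over KO label after APAP and -0.24 to 0.53 for the interaction, 0 to 1 members passing over both labels, and ranges across 0 for COX2 in WT (-0.37 to 0.84), ND6 under the KO label (-0.27 to 0.18), ND6 and COX3 for WT over KO label after APAP (-0.14 to 0.31 and -0.11 to 1.13), ATP6 with vehicle (-0.40 to 0.27), mt-Rnr1 in the interaction (-0.095 to 0.63) and CYTB over both labels (-0.16 to 0.19). By TPM the summed share was 11.02% and 9.93% in WT vehicle and APAP and 10.9% and 10.8% under the KO label, and the make-up was 25.9% COX1, 13.1% ATP6, 9.04% COX3, 8.51% ND1, 8.30% COX2, 7.13% ND4, 3.75% ND5 and 0.464% ND6.

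The replicate numbers do not pair the livers (correlation of same-numbered deviations -0.26 to 0.05). With the replicate number as a block the members' medians were -0.10 in WT and -0.18 under the KO label, no member's call changed, mt-Rnr1 in WT had an adjusted p of 0.14, and the number of all genes passing in WT went from 322 to 62. Over all alternatives that number was 41 to 1523 in WT, 1995 to 4325 under the KO label (3538), 0 to 29 (5) and 0 to 137 (4) between labels after APAP and with vehicle, 0 to 9 (0) for the interaction and 3111 to 4905 (4142) over both labels. ND6, the lowest of the 10, had at least 6345 counts in every liver, so the spread between 3 livers, more than depth, sets the precision.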
